A study of Mus musculus with 24 samples.

Results

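The genes of cholesterol synthesis and sterol regulation were followed in 3 brain regions of mice with a conditional THAP1 knockout. The set was chosen by gene symbol and holds 29 genes: 7 lead from acetyl-CoA to farnesyl diphosphate, 3 from there through squalene to lanosterol and 9 from lanosterol to cholesterol, 5 are regulators, and 5 serve transport and turnover. Probes carried the symbols of 26 of the 29, and 25 passed the detection filter among 11114 genes tested. Acat2, Mvk and Fdft1 had no probe under their symbols and were not analysed here. The single probe of Abca1, a pump that exports cholesterol, was detected on 0 of 24 arrays, with log2 signals of 4.20 to 4.42, and was not tested.

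Messenger RNA was measured on Illumina bead arrays at postnatal day 21. The labels give 4 arrays for Nestin THAP1 KO and 4 for Nestin Con in each of cerebellum, cortex and striatum, which makes 6 groups and 24 arrays. THAP1 binds DNA through a zinc finger and regulates transcription, and mutations of its human gene cause an inherited dystonia. Nestin is an intermediate filament of neural progenitors, and its promoter is commonly used to delete genes in neurons, astrocytes and oligodendrocytes, whereas microglia and vessel cells have other origins. Both genotypes carry Nestin in their label. The design text counts 4 knockout and 4 control mice, fewer than the 12 arrays of each genotype. Taken as a count for the whole series, it means that arrays of different regions share animals. Which array came from which animal is not given, so no term for the mouse could be fitted. The p-values then measure only the spread between these arrays. Comparisons between regions treat the arrays as unpaired, so their SEs may be off where regions share mice.

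The brain makes nearly all of its own cholesterol, because lipoproteins of the blood do not cross the blood-brain barrier. At the age studied oligodendrocytes need much of it for myelin, astrocytes pass it to neurons in particles that hold apolipoprotein E, and neurons clear the surplus through an enzyme that hydroxylates it. Low sterol in the endoplasmic reticulum lets Scap carry the SREBP proteins, encoded by Srebf1 and Srebf2, to the Golgi for activation, the Insig proteins hold them back when sterol is plentiful, and active SREBP2 switches on most genes of the pathway.

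Arrays had mean raw signals of 287 to 570 and detected 47.2 to 54.5% of 25697 probes (detection p under 0.01). Markers followed the labelled regions. The 7 cerebellar genes averaged 9.38 on the log2 scale in cerebellum KO and 9.60 in cerebellum Con, against 5.34 to 5.68 in the other 4 groups. Of 3 Thap1 probes, 1 was detected on 0 of 12 KO arrays and 8 of 12 Con arrays, another on 1 of 12 KO arrays and 10 of 12 Con arrays. The other was detected on 12 of 12 KO arrays and 10 of 12 Con arrays, and its difference of 1.12 in the cerebellum went the opposite way (adjusted p = 0.0152). It was not called in the cortex (0.82, adjusted p = 0.0935) or the striatum (0.39, 0.79). The probe detected on 0 KO arrays was called lower in the cortex, by -1.07 (adjusted p = 0.0015 by limma). It had -0.37 in the cerebellum (0.941) and -0.70 in the striatum (0.0687). The sources used here do not give the position of the deleted part relative to the probes.

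Promoter sequences show what the members share beside their function. The RefSeq table of build GRCm38.p6 held windows of 250 bases before to 50 after a start for 25 of the 29 members, 35 windows in all. The letters CCAAT, the core that NF-Y binds beside SREBP, stood on either strand in a window of 20 of the 25 (80%), against 43.4% of 8265 tested genes with a window and 41.1% of all 27025 genes in the table. A stringent spelling of the sterol regulatory element, TCACNCCAC, was found in 1 member, Hmgcs1 (4%), against 1.54% of tested genes and 1.44% of all genes. The THAP1 core letters TNNGGGCA were found in Lbr, Insig2 and Srebf1, 3 of 25 (12%), against 17.1% of tested genes and 15.7% of all genes. No match of one motif overlapped a match of another in the members' windows. A match is a description of letters, and a window without one says nothing of a factor's binding elsewhere. The 250 bases before the start are printed for 5 genes on which the values below turn: Hmgcs1 as the holder of the sterol element, Msmo1 for its knockout values, and Lbr, Ebp and Cyp46a1 for their regional levels. Capitals mark motif matches, CCAAT or its reverse complement ATTGG in all 5, TCACCCCAC in Hmgcs1 and TCAGGGCA, a THAP1 core, in Lbr.
Hmgcs1, chr13:119690101-119690350, plus strand: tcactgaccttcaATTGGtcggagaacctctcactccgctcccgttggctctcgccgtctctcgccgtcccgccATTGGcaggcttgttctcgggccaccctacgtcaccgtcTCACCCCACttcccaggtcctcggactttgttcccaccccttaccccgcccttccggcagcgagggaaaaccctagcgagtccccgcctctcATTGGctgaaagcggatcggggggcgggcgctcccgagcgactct
Msmo1, chr8:64733579-64733828, minus strand: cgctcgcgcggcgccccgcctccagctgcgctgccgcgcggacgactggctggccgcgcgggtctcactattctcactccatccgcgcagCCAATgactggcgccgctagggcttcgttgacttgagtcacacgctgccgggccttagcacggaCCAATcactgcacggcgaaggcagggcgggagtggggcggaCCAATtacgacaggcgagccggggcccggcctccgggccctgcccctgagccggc
Lbr, chr1:181842402-181842651, minus strand: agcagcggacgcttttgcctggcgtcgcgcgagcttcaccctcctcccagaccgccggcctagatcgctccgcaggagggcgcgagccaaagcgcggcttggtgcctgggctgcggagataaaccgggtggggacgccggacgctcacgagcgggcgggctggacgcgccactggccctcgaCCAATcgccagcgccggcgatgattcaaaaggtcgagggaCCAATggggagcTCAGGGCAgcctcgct
Ebp, chrX:8193513-8193762, minus strand: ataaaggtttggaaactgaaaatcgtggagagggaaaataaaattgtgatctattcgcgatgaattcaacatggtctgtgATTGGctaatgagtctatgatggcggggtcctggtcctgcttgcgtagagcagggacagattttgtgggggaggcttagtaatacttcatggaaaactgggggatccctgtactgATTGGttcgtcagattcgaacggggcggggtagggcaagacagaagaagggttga
Cyp46a1, chr12:108334066-108334315, plus strand: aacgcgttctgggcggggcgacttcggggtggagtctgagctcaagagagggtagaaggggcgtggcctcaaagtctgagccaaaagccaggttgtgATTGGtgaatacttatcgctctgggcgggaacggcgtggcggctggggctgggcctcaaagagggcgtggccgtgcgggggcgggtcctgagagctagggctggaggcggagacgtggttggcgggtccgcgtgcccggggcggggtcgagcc

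In the knockout, no cholesterol gene passed the test in any region. Called genes, at an adjusted p under 0.05 by limma over all 11114 genes, made up 0.234% of the array in the cerebellum, 0.549% in the cortex and 0.54% in the striatum. The member differences, on the brightest probe of each gene, were small in every region. They lay between -0.26 and 0.22 (log2, KO minus Con) in the cerebellum, between -0.40 and 0.33 in the cortex and between -0.46 and 0.20 in the striatum. More of them lay below 0 than above: 18 of 25 in the cerebellum, 17 in the cortex and 21 in the striatum, where 48.5%, 48.6% and 45.9% of all genes lay below. The member medians were -0.11, -0.08 and -0.17, against all-gene medians of 0.01, 0.01 and 0.02. When single arrays were left out the member medians ran from -0.13 to -0.07 in the cerebellum, from -0.20 (without Con array 10) to -0.01 (without Con array 9) in the cortex and from -0.23 to -0.13 in the striatum.

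The measurement set a limit on what could have been missed. Leaving out Idi1, which was not detected on most arrays, the 95% intervals of all 24 members lay within a 2-fold difference in either direction in each of the 3 regions. These are intervals of the brightest probe of each gene. The dimmer Insig2 probe, not covered by them, differed by 0.53 in the cerebellum, 0.57 in the cortex and 0.42 in the striatum. None of these passed (adjusted p over probes = 0.9999, 0.794 and 0.955 by limma). The intervals of the brightest probes lay within 1.5-fold for 17 of the 24 in the cerebellum, 16 in the cortex and 17 in the striatum. These folds are on the scale of the background-corrected signal with its offset, which understates the change of dim genes. The lowest limit belonged to Nsdhl in the striatum (-0.86) and the highest to Srebf1 in the striatum (0.75). The residual SD of a member ranged from 0.14 to 0.43 with a median of 0.24, near the 0.23 of all genes. The levels of 22 tested members were detected on all 24 arrays. Idi1 was detected on 8 arrays, among them 0 of 4 cortex KO and 1 of 4 cortex Con, so its values there are not well above background and carry no fold. Srebf1 was detected on 19 arrays and Tm7sf2 on 22.

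**Figure D1:**
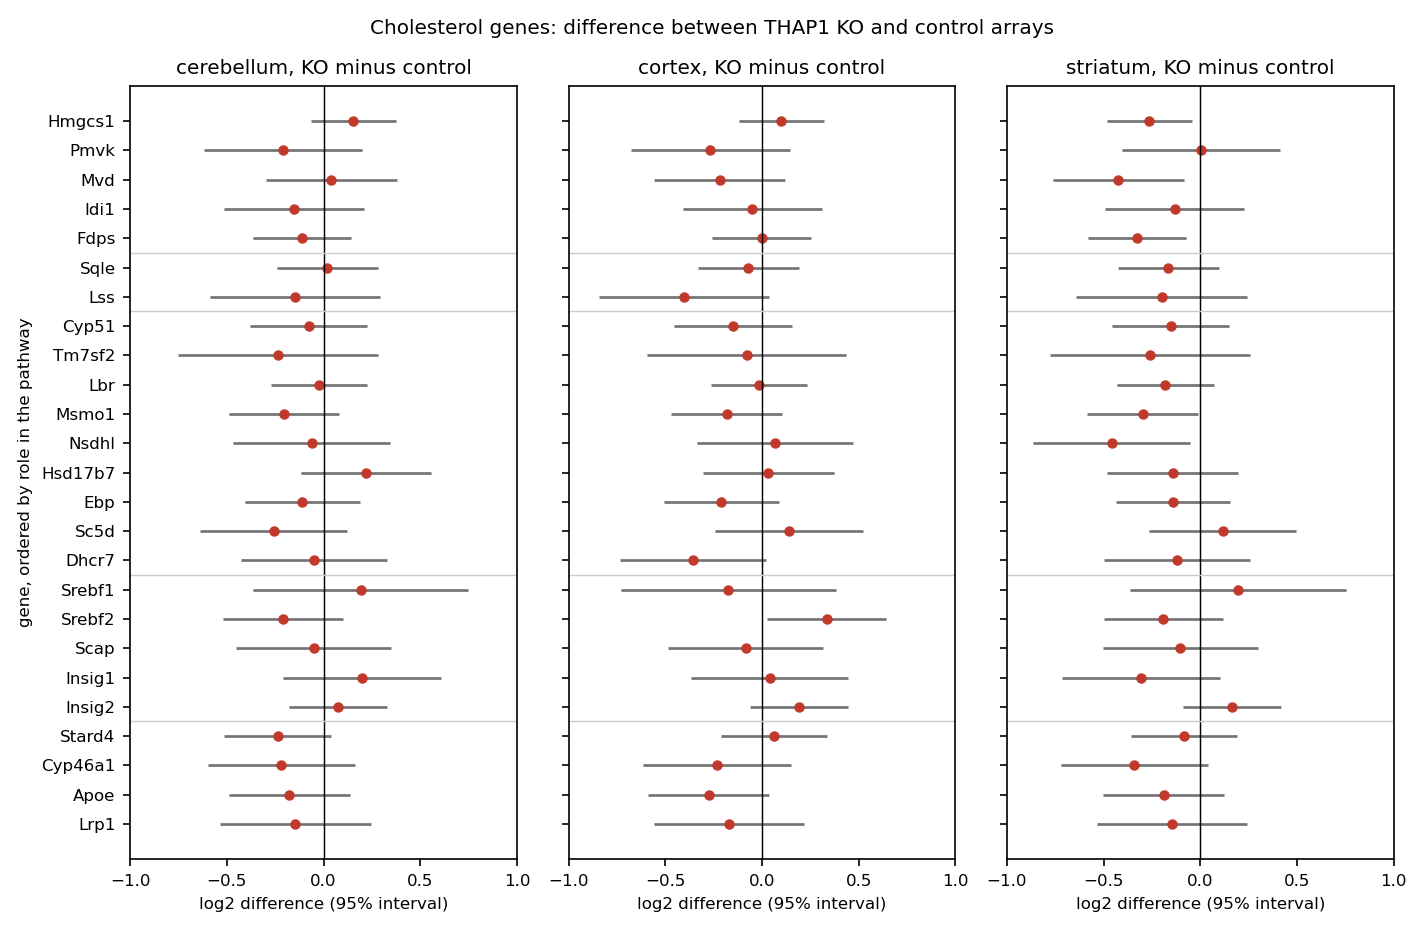
Log2 differences between THAP1 KO and control arrays for the 25 tested members, with 95% intervals (4 arrays a group), in cerebellum, cortex and striatum. Grey lines separate the roles, from early enzymes at the top to transport and turnover at the bottom. All intervals lie between -1 and 1, that of Idi1 resting on signals not detected on most arrays. In the striatum 5 members and in the cortex 1 have an interval that leaves out 0.

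In the striatum most enzymes of the pathway had a KO mean below the Con mean. Of the 16 measured synthesis enzymes 14 had a difference below 0, with a median of -0.17. Hmgcs1, which makes HMG-CoA, read 12.75, 12.52, 12.77 and 12.41 on the KO arrays, against 12.94, 12.88, 12.90 and 12.79 on the Con arrays. It was the 1 member of the striatum whose groups did not overlap, KO below Con, as did 1.76% of all genes. The difference was -0.26 ± 0.11 (SE), a ratio of 0.833, with an adjusted p of 0.519 by limma.

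Mvd, the decarboxylase that yields isopentenyl diphosphate, read 7.72, 7.40, 7.04 and 6.83 on the striatal KO arrays and 8.11, 7.58, 7.39 and 7.59 on the Con arrays. Fdps, which builds farnesyl diphosphate, read 10.30, 10.27, 10.17 and 9.83 on the KO arrays and 10.73, 10.43, 10.42 and 10.30 on the Con arrays. In both genes the KO mean was lower and the groups overlapped. The difference was -0.42 ± 0.17 for Mvd (adjusted p = 0.475) and -0.33 ± 0.12 for Fdps (adjusted p = 0.442).

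Later in the pathway, Msmo1 and Nsdhl act in turn to remove methyl groups from the sterol ring. Nsdhl had the largest difference of the striatal set, with 6.60, 6.56, 6.45 and 6.43 on the KO arrays and 7.00, 7.13, 6.47 and 7.28 on the Con arrays. A single Con array lay among the KO values. The ratio was 0.728 and the difference -0.46 ± 0.20 (adjusted p = 0.581), while the 3 dimmer Nsdhl probes gave -0.26, -0.16 and -0.12. Msmo1 read 10.22, 10.51, 10.06 and 10.20 on the KO arrays and 10.47, 10.31, 10.81 and 10.60 on the Con arrays, a difference of -0.30 ± 0.14 (adjusted p = 0.657).

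These 5 enzymes were the members with an unadjusted p under 0.05 in the striatum, 5 of 25, all with KO below Con, where 7.4% of all genes had such a p and 3.69% had it with KO below. With median scaling 0 members had such a p. None passed the adjustment. The unadjusted p of Fdps was 0.0138, of Mvd 0.0161, of Hmgcs1 0.0204, of Nsdhl 0.0275 and of Msmo1 0.042 by limma. The 2 enzymes with a striatal difference above 0 were Pmvk (0.01), the kinase of phosphomevalonate, and Sc5d (0.12), a sterol desaturase.

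None of the other striatal members had an unadjusted p under 0.05. Sqle, the squalene epoxidase, had a difference of -0.17, and its second probe gave -0.16. Lss, which closes the ring to lanosterol, had -0.20, and Cyp51, the lanosterol demethylase, -0.15. Among the regulators Insig1 had -0.31 on its brightest probe and -0.34 and -0.31 on the other probes that passed, Srebf2 had -0.19, Scap -0.10, Insig2 0.17 and Srebf1 0.20. Cyp46a1, the neuronal hydroxylase that clears cholesterol, had -0.34, Apoe -0.19, Lrp1, a receptor for apolipoprotein E, -0.15, and Stard4, a carrier of sterols between membranes, -0.08.

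**Figure D2:**
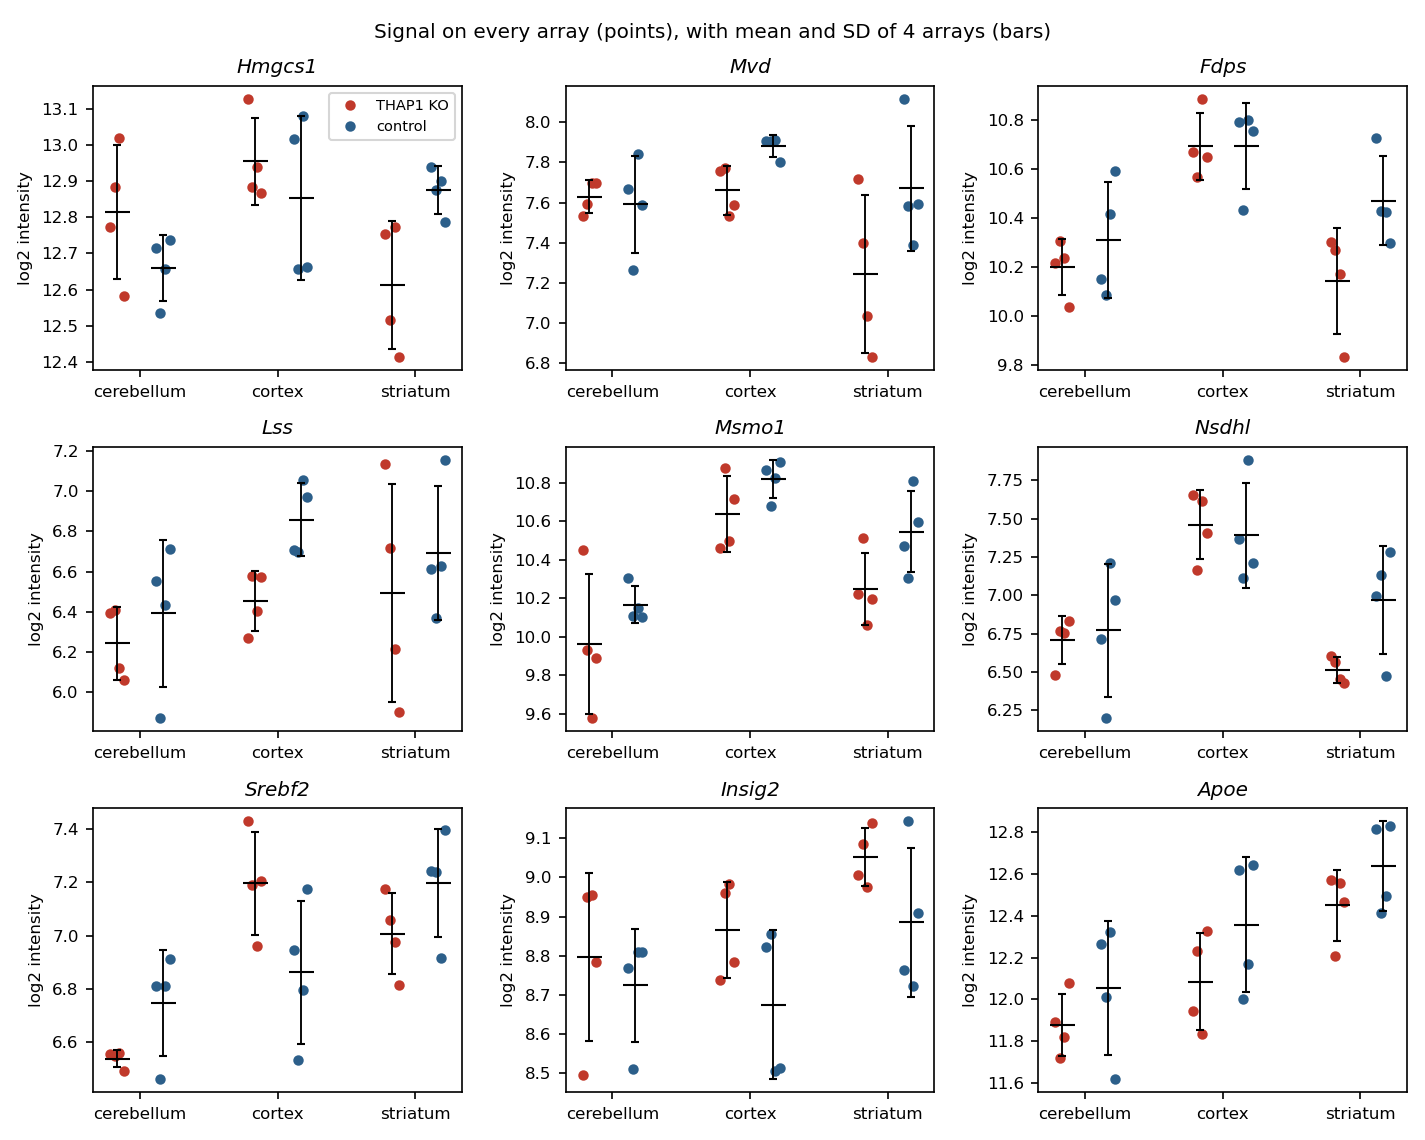
Log2 intensity of 9 members on every array, THAP1 KO in red and control in blue, with the mean and SD of 4 arrays as bars. In the striatum the 4 Hmgcs1 values of the KO lie below the 4 of the control, while most other pairs of groups overlap.

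In the cortex Srebf2 was the member with the lowest p. It encodes the SREBP that drives cholesterol genes, and it read 7.43, 7.19, 6.96 and 7.20 on the KO arrays and 6.94, 6.53, 6.79 and 7.17 on the Con arrays. The KO mean was higher and the groups overlapped. The difference was 0.33 ± 0.15 (unadjusted p = 0.0346, adjusted p = 0.428 by limma), and it was the 1 member under an unadjusted 0.05, where 10.5% of all genes were.

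Lss and Dhcr7 had the largest cortical differences below 0. Lss read 6.27, 6.58, 6.40 and 6.57 on the KO arrays and 6.71, 6.70, 7.06 and 6.97 on the Con arrays, a difference of -0.40 ± 0.21 (adjusted p = 0.535). Mvd, whose groups did not overlap either, read 7.76, 7.77, 7.53 and 7.59 on the KO arrays and 7.91, 7.91, 7.91 and 7.80 on the Con arrays, a difference of -0.22 ± 0.17 (adjusted p = 0.701). In Lss and Mvd every KO value lay below every Con value, 2 members where 3.73% of all genes did so. Dhcr7, which makes cholesterol from its last precursor, had -0.36 ± 0.18 (adjusted p = 0.514) with overlapping groups.

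The remaining cortical members lay between -0.27 (Apoe and Pmvk) and 0.19 (Insig2). Of the 16 synthesis enzymes 12 had a cortical difference below 0. Hmgcs1 had 0.10, Sc5d 0.14, Nsdhl 0.07 and Hsd17b7, a sterol reductase, 0.03. Insig1 differed between its probes, with 0.04 and 0.02 on the brighter and -0.47 on the dimmest that passed (adjusted p over probes = 0.553).

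In the cerebellum Stard4 was the 1 member whose groups did not overlap. It read 8.46, 8.48, 8.34 and 8.37 on the KO arrays, all below the 8.90, 8.52, 8.65 and 8.53 of the Con arrays. The difference was -0.24 ± 0.13 (adjusted p = 0.977 by limma), and 1.19% of all genes had KO below Con without overlap. No cerebellar member had an unadjusted p under 0.05, against 5.38% of all genes.

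Other cerebellar values ran in both directions. Sc5d had -0.26, Tm7sf2, a sterol reductase, -0.24, and Cyp46a1 -0.22, while Hsd17b7 had 0.22, Insig1 0.20, Srebf1 0.19 and Hmgcs1 0.15. Hmgcs1 read 12.77, 12.88, 13.02 and 12.58 on the KO arrays and 12.71, 12.53, 12.66 and 12.74 on the Con arrays. Srebf2 read 6.56, 6.55, 6.56 and 6.49 on the KO arrays and 6.81, 6.46, 6.81 and 6.91 on the Con arrays, a difference of -0.21, opposite in sign to its cortical one.

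Whether the knockout difference itself varied between regions was tested for all members. None passed the adjustment in any of the 3 contrasts, in each of which 0.009% of all genes did. Hmgcs1 and Srebf2 had an unadjusted p under 0.05. The striatal difference of Hmgcs1 minus its cerebellar one was -0.42 (95% interval -0.73 to -0.11, adjusted p = 0.998), and cortical minus striatal was 0.36 (0.05 to 0.67, adjusted p = 1.00). The cortical difference of Srebf2 minus its cerebellar one was 0.54 (0.11 to 0.98, adjusted p = 1.00), and cortical minus striatal was 0.53 (0.09 to 0.96, adjusted p = 1.00). In these contrasts 3.9% (cortex minus cerebellum), 3.6% (striatum minus cerebellum) and 4.35% (cortex minus striatum) of all genes had an unadjusted p under 0.05. The contrasts share arrays, so the values of a gene are not separate evidence.

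Averaged over the regions, 22 of 25 members had a difference below 0 against 47.2% of all genes, with a median of -0.13 against 0.01. None passed the adjustment, which 2.31% of all genes did, and the intervals of the 24 members other than Idi1 lay within 1.5-fold on their brightest probes. The dimmer Insig2 probe, not covered by these intervals, had 0.51 (adjusted p over probes = 0.507 by limma). Msmo1 had -0.23 ± 0.08 (adjusted p = 0.149), Cyp46a1 -0.26 ± 0.11 (0.227), Apoe -0.21 ± 0.09 (0.237) and Mvd -0.20 ± 0.10 (0.329 by limma). These 4 were the members with an unadjusted p under 0.05, against 14.4% of all genes. With median scaling there were 0 such members, and with the authors' values or no filter on dim probes 6. Without cerebellum KO array 21 the mean difference of Msmo1 was -0.28 and passed (adjusted p = 0.0281), and no other call of a member between KO and Con arose under any alternative tried. The mean over regions counts arrays of different regions as independent. Where they share mice, its SEs, intervals and p-values may be too small.

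Signs repeated across regions for some members. The difference was below 0 in all 3 regions for 13 members: Idi1, Fdps, Lss, Cyp51, Tm7sf2, Lbr, Msmo1, Ebp, Dhcr7, Scap, Cyp46a1, Apoe and Lrp1. That is 52% of the members, against 16.4% of all genes. Some of these signs rest on differences near 0: Fdps had -0.002 in the cortex, and Lbr -0.015 there and -0.025 in the cerebellum. Idi1 was detected on 0 of 4 KO and 1 of 4 Con arrays of the cortex. The count depends on the scaling: with median scaling 12 members, and 28.1% of all genes, lay below 0 in the cortex. The count could then not reach 13. Regions may share mice, so their signs may not be independent. Insig2 was the 1 member above 0 in all 3 (4%, against 21.4% of all genes). Its brighter probe had 0.07, 0.19 and 0.17 in cerebellum, cortex and striatum. Its dimmer one had 0.53, 0.57 and 0.42 (adjusted p over probes = 0.9999, 0.794 and 0.955 by limma). The mean log2 signal of the 16 enzymes, a description of the set, was 8.11 ± 0.09 in KO and 8.19 ± 0.14 in Con of the cerebellum (SD, n = 4 each). It was 8.22 ± 0.05 in KO and 8.32 ± 0.14 in Con of the cortex. In the striatum it was 7.97 ± 0.17 in KO and 8.17 ± 0.07 in Con. The groups overlapped in each region. Striatum KO arrays 5 and 6 (8.16 and 8.08) lay within the Con range of 8.07 to 8.23, and arrays 7 and 8 (7.84 and 7.81) below it.

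The direction of the cortical set depended on scaling. Under median scaling in place of quantile normalization, all genes shifted by -0.10 in the cerebellum, 0.13 in the cortex and 0.08 in the striatum, and the member medians became -0.24, 0.03 and -0.09. Relative to all genes the member medians were then -0.13, -0.10 and -0.17, against -0.12, -0.09 and -0.18 under quantile normalization. The number of cortical members below 0 was 12 of 25 under median scaling, and it ranged from 13 to 20 when single arrays were left out.

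Transcripts of mature oligodendrocytes, the cells that use much of the cholesterol, were mostly lower in the KO, with calls in single regions only in the forebrain. Of 18 listed myelin genes 15 were measured. None was called in the cerebellum, 8 were called lower in cortex KO and 10 lower in striatum KO. All genes called lower made up 0.126%, 0.324% and 0.414% in these regions. The median differences of the myelin genes were -0.18, -0.69 and -0.82. The cortical count was 0 without KO array 16, without Con array 9 or with median scaling, 1 without KO array 14 and 3 without KO array 15 or Con arrays 10 or 11, and the striatal count was 5 with median scaling and 4 with the arrays of that region alone. Their summed linear signal was 34519 to 45301 on cortex KO arrays against 51086 to 61495 on cortex Con arrays. It was 38906 to 60661 on striatum KO arrays against 64379 to 73659 on striatum Con arrays, and 55597 to 63569 on cerebellum KO arrays against 59347 to 70442 on cerebellum Con arrays. Aspa was detected on 0 arrays of either cortex group, and the other 14 on at least 1 array of every group. In the cerebellum all 15 lay below 0, and in cortex and striatum 14 each, against 48.5%, 48.6% and 45.9% of all genes. Over the 3 regions together 13 were called lower, against 2.31% of all genes called in either direction. None was called in the contrasts of the KO effect in cortex or striatum minus that in cerebellum, where 0.009% of all genes were. Among markers of other cells no gene was called in a single region. Over the 3 regions together 1 marker of oligodendrocyte precursors and 1 striatal marker were called lower. In the cortex 6 of 7 microglial markers lay below 0 (median -0.24, summed signal 1937 to 2502 in KO and 2540 to 2638 in Con) and 7 of 7 neuronal ones above (median 0.11, 44366 to 48963 in KO and 41569 to 45776 in Con). In the striatum 4 of 5 markers of oligodendrocyte precursors lay below 0 (median -0.30, 6411 to 8855 in KO and 8799 to 11337 in Con), as did 5 of 5 striatal markers (median -0.22, 6757 to 12210 in KO and 7773 to 12783 in Con). In the cerebellum 6 of 7 cerebellar markers (median -0.20) and 5 of 7 neuronal ones (-0.04) lay below 0. There 5 of 7 microglial markers lay above 0 (median 0.08). Of all genes 51.5% lay above 0 in the cerebellum and 51.4% in the cortex. In tissue extracts fewer cells of a type and less RNA per cell cannot be told apart. The part of these markers in the cholesterol values was not tested.

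**Figure D3:**
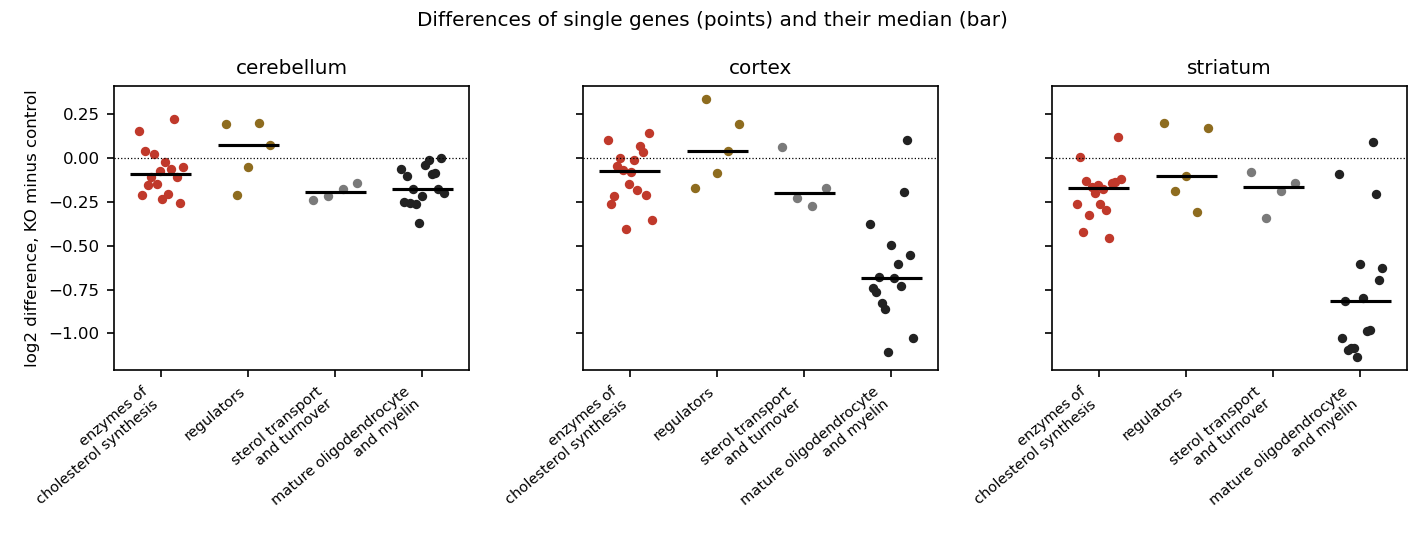
Log2 differences, KO minus control, of single genes (points) with the median of each list (bar), for the 16 enzymes, 5 regulators and 4 transport and turnover genes of the cholesterol set and for 15 myelin genes. In cortex and striatum the myelin medians are -0.69 and -0.82, while no cholesterol gene lies below -0.46.

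Neighbouring pathways were read on the same arrays. No gene of the isoprenoid branch (8 of 12 measured), of fatty acid synthesis (10 of 10), of sterol transport and oxysterols (10 of 18) or of SREBP processing and sterol-regulated degradation (5 of 8) was called in a single region. Npc2, which hands cholesterol out of lysosomes, was called lower over the 3 regions together, by -0.42 (adjusted p = 0.0245 by limma, 0.0876 with median scaling). It was the only gene of these lists called there, where 2.31% of all genes were called in either direction. Its difference was -0.52 in the cortex (adjusted p = 0.227) and -0.51 in the striatum (0.359). The p-values over regions count arrays of different regions as independent and may be too small where these share mice. Cyp27a1, which makes an oxysterol in mitochondria, had -0.47 in the cortex and -0.49 in the striatum (adjusted p = 0.386 and 0.522), and Apod, a lipid carrier of glia, -0.46 in the striatum (0.479).

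In the isoprenoid branch, Icmt, the methylase of prenylated proteins, had 0.37 in the cortex (adjusted p = 0.13), with Coq2 at -0.38 (0.449) and Fnta, a farnesyltransferase subunit, at -0.20 (0.514). In fatty acid synthesis the smallest p-values belonged to Acly (0.21 in the cerebellum, adjusted p = 0.872), Elovl6 (0.27 in the cortex, 0.378) and Acss2 (-0.24 in the striatum, 0.48). Acss2, which makes acetyl-CoA from acetate, was the nearest to the threshold over the regions together, with -0.20 (adjusted p = 0.0604), and passed with the authors' values (0.0289), with array weights (0.0295) and without cortex Con array 10 (0.0389). Icmt passed in the cortex with array weights (0.0434). Of the SREBP processing list Faf2 had the smallest p in each region, with -0.22, -0.15 and 0.13 in cerebellum, cortex and striatum (adjusted p = 0.984, 0.734 and 0.912).

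The control arrays give the normal levels of the set by region. Of the 25 members 15 differed between at least 1 pair of regions and 10 between none, where 60.5% of all genes had such a difference. The median span between a gene's highest and lowest region was 0.47 for members and 0.50 for all genes. The 10 without a call were Hmgcs1, Pmvk, Mvd, Idi1, Lss, Cyp51, Tm7sf2, Scap, Insig1 and Insig2, and for these no pair of regions passed the test. The 3 pairs of regions share control arrays, so their counts are not separate evidence.

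**Figure D4:**
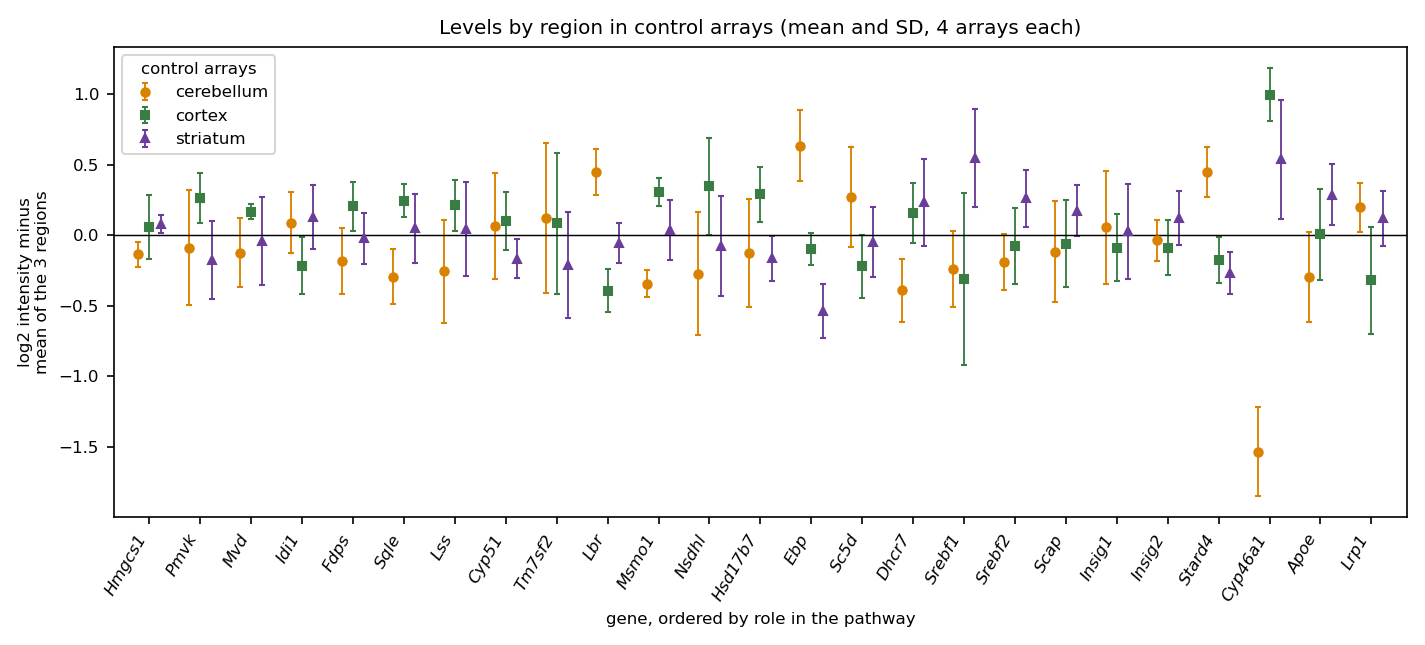
Log2 intensity of the 25 members in control arrays of cerebellum, cortex and striatum, each minus the gene's mean over the 3 regions, as mean and SD of 4 arrays. Cyp46a1 has the widest spread, lowest in the cerebellum, and Lbr, Ebp and Stard4 stand highest there.

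Cerebellum and cortex differed in the largest number of members. Of these 12 were called (background 45.6%), 5 higher in the cerebellum (23.9% of all genes) and 7 lower (21.8%). With median scaling 5 were higher and 4 lower. Cyp46a1 read 6.42, 6.99, 7.04 and 6.54 in cerebellum Con, 9.06, 9.18, 9.38 and 9.48 in cortex Con and 8.64, 8.41, 9.40 and 8.83 in striatum Con. The 4 cerebellar values lay far below all others, with a difference of -2.52 ± 0.19 against cortex, a ratio of 0.174 (adjusted p = 3.4e-12).

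Lbr and Ebp, a reductase and an isomerase of the late pathway, ran the other way. Lbr, a sterol reductase that also anchors the nuclear lamina, read 8.70, 8.68, 8.47 and 8.37 in cerebellum Con, 7.74, 7.51, 7.72 and 7.88 in cortex Con and 8.05, 7.86, 8.21 and 8.08 in striatum Con. Ebp, the sterol isomerase, read 8.99, 9.41, 8.80 and 9.07 in cerebellum Con, 8.43, 8.19, 8.41 and 8.32 in cortex Con and 8.02, 8.02, 7.93 and 7.61 in striatum Con. Both were highest in the cerebellum without overlap. Cerebellum exceeded cortex by 0.84 ± 0.12 for Lbr (adjusted p = 1.4e-06) and by 0.73 ± 0.14 for Ebp (adjusted p = 1.2e-04).

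Stard4 was also higher in the cerebellum, with 8.90, 8.52, 8.65 and 8.53 there against 8.21, 8.11, 7.84 and 7.96 in the cortex, a difference of 0.62 ± 0.13 (adjusted p = 3.1e-04). Lower in the cerebellum were Msmo1 (-0.65 ± 0.14, adjusted p = 3.0e-04) and Sqle (-0.54 ± 0.13, adjusted p = 9.6e-04), both without overlap. The calls of Cyp46a1, Lbr, Ebp, Stard4, Msmo1 and Sqle held under every alternative and without any single array.

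Weaker calls against cortex were Fdps (-0.38), Nsdhl (-0.62), Hsd17b7 (-0.42) and Dhcr7 (-0.55), lower in the cerebellum, and Sc5d (0.49) and Lrp1 (0.52), higher there. Each ended without some array. Fdps ended without cerebellum array 18 (adjusted p = 0.058), Nsdhl without array 18 or cortex array 11 (0.0755 and 0.069) and Dhcr7 without cortex array 11 (0.0565). Hsd17b7 ended without cerebellum arrays 17, 18 or 19 or cortex arrays 9 or 11 (0.0583 to 0.149). Sc5d ended without cerebellum arrays 17 or 19 or cortex arrays 10 or 11 (0.0504 to 0.161), and Lrp1 without cerebellum arrays 17 or 18 or cortex arrays 10 or 11 (0.0566 to 0.147). Median scaling ended the calls of Fdps, Nsdhl, Hsd17b7 and Dhcr7 (adjusted p = 0.0755, 0.14, 0.233 and 0.185) and made one for Apoe (0.029). Without a filter on dim probes Hsd17b7, Sc5d and Lrp1 did not pass (0.063, 0.0556 and 0.068), with array weights Sc5d did not (0.0536), and Hsd17b7 did not with the authors' values (0.058) or the compared groups alone (0.0544). Calls appeared for Pmvk without cerebellum array 19 (0.0226), for Lss without cerebellum array 20 (0.0457) and for Apoe without cortex array 10 (0.0302).

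Against the striatum, 10 members were called in the cerebellum (background 41.2%), 3 higher (20.8%) and 7 lower (20.5%), or 3 and 3 with median scaling. Ebp was higher by 1.17 ± 0.14 (adjusted p = 1.1e-07), a ratio of 2.25, Stard4 by 0.71 ± 0.13 (adjusted p = 7.0e-05) and Lbr by 0.50 ± 0.12 (adjusted p = 0.00126). Lower were Cyp46a1 (-2.07 ± 0.19, adjusted p = 2.2e-10) and Apoe (-0.58 ± 0.15, adjusted p = 0.00267). Apoe read 12.27, 12.01, 12.32 and 11.62 in cerebellum Con and 12.81, 12.41, 12.50 and 12.83 in striatum Con, without overlap. These 5 calls held under every alternative and without any single array.

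The other 5 were lower in the cerebellum than in the striatum, and each call ended under some alternative. Dhcr7 had -0.62 (adjusted p = 0.00736) and ended with median scaling alone (0.056). Srebf2 had -0.45 and ended without cerebellum array 18 or striatum array 4 (0.079 and 0.0643). Srebf1, whose product favours fatty acid genes, had -0.78 and ended without cerebellum arrays 18, 19 or 20 or striatum arrays 2 or 3 (up to 0.0724). Sqle had -0.34 and ended without cerebellum arrays 17 or 18 or striatum arrays 1, 3 or 4 (0.0543 to 0.151). Msmo1 had -0.38 and ended without cerebellum arrays 18, 19 or 20 or striatum arrays 3 or 4 (0.055 to 0.118). Median scaling also ended the calls of Sqle, Msmo1 and Srebf2 (0.361, 0.241 and 0.193), and Sqle did not pass without a filter on dim probes (0.0523) or with the compared groups alone (0.0709). Cyp51 was called without cerebellum array 18 (0.0268).

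Cortex and striatum differed in the fewest members, with 4 called (background 29.1%), 2 higher and 2 lower in the cortex, or 0 and 1 with median scaling. Hsd17b7 (0.45 ± 0.16, adjusted p = 0.0381) and Ebp (0.44 ± 0.14, adjusted p = 0.0215) were higher in the cortex, where 13.1% of all genes were. Lbr (-0.34 ± 0.12, adjusted p = 0.0378) and Srebf1 (-0.86 ± 0.27, adjusted p = 0.0179) were lower, where 16% were, and Srebf1 was detected on 2 of 4 cortex Con arrays. All 4 calls ended without some array: Lbr without cortex arrays 9, 10 or 11 or striatum arrays 1, 3 or 4 (0.0588 to 0.131), Hsd17b7 without any of the cortex arrays 9, 11 or 12 or striatum arrays 1, 3 or 4 (0.0501 to 0.139). Ebp ended without cortex arrays 9 or 11 or striatum array 4 (0.0558 to 0.0957), and Srebf1 without cortex arrays 10 or 12 or striatum array 2 (0.0638 to 0.0853). Median scaling ended Lbr, Hsd17b7 and Ebp (0.144, 0.0987 and 0.0982), the authors' values Hsd17b7 and Srebf1 (0.057 each), the compared groups alone Lbr (0.0848) and the lack of a filter on dim probes Hsd17b7 (0.0592). With array weights 6 members were called, with Cyp46a1 (0.0239) and Fdps (0.0454) added as higher in the cortex, and without background correction 5, with Cyp46a1 added (0.0409). Cyp46a1 was also called higher in the cortex without striatum array 3 (0.65, adjusted p = 0.00714), Lrp1 lower without cortex array 9 (0.0445), and Srebf2 lower without cortex array 12 or striatum array 3 (0.039 and 0.0407).

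The regional differences called in controls were read again in the knockout arrays, a separate set. All 26 called regional differences had the same sign between the KO groups, and 15 of the 26 (7 of 12 between cerebellum and cortex, 6 of 10 between cerebellum and striatum and 2 of 4 between cortex and striatum) did so without overlap. Of all genes called in the controls, 75.1%, 73.3% and 63.6% did so in the same pairs. Of all genes called in the controls, 99% kept their sign in cerebellum against cortex, 99% in cerebellum against striatum and 97.4% in cortex against striatum. Between KO arrays of cerebellum and cortex, Cyp46a1 differed by -2.51, Lbr by 0.83, Ebp by 0.83, Msmo1 by -0.68 and Stard4 by 0.32, against -2.52, 0.84, 0.73, -0.65 and 0.62 between Con arrays. Among the 26, Sc5d was furthest from its control value, 0.09 between KO arrays of cerebellum and cortex against 0.49 between Con arrays.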

How the data were processed

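Total RNA was measured on 24 arrays. Per the file headers, the deposited raw table holds a linear bead intensity and a detection p-value for each of 25697 probes; the submitters' processing notes name BeadStudio, without a version. A second deposited table holds the authors' processed intensity, with column medians of 11.553 to 11.606 and lowest values of -19.8 to -14.6; which background and scaling steps made it is unknown. Raw intensities were background-corrected in limma 3.58.1 (R 4.3.3) from the detection p-values with an offset of 16, taken to log2 and quantile normalized, so differences of dim genes are understated. The filter kept the 14994 probes with a detection p under 0.01 on 4 or more arrays. The brightest stood for each gene, by symbols of the platform annotation (23978 probes with 1 gene, 0 with several, 1719 with none), 8 of them updated through RefSeq. The model of lmFit and trended eBayes held 6 group means over all 24 arrays and gave 10 contrasts with two-sided p-values adjusted by Benjamini-Hochberg over 11114 genes. Intervals are at 95%. The residual degrees of freedom were 18 and the number of unlabelled sample columns was 0. The fit was tested on simulated data with noise independent between arrays. Of genes given a log2 change of 0.5, it called 40.3% in the cerebellum, 38.8% in the cortex and 34.3% in the striatum. With a change of 1 it called 92.5%, 88.1% and 91.0%. Real changes of the size of the member differences could thus be missed. The number of arrays limits the precision. Alternatives changed the background correction, scaling, filter, weights, the arrays fitted and each array in turn, and used the authors' values. All members, Thap1, and up to 3 genes per further list and region were named, plus called ones; genes singled out beyond that were chosen after their values were seen. The members and lists were chosen with earlier results of these data known.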

Additional observations from a re-analysis of the deposited data

Results flagged for a closer look

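In 12 of the 150 combinations of member and group (8%), 1 of the 4 arrays stood apart from the others by more than Dixon's 95% limit on the gap over the range, which chance exceeds in about 1 group in 20. No array of the 24 accounts for more than 2 of them. The cerebellum KO arrays held 4: Pmvk read 6.773 on array 23 (the others 7.553 to 7.594), Sqle 10.4 and Ebp 9.236 on array 22 (the others up to 9.971 and 8.9), and Srebf2 6.49 on array 24 (the others from 6.548). A single striatum KO value stood apart, Lrp1 at 6.069 on array 6 against at most 5.82. In cerebellum Con, Srebf1 read 5.667 on array 17 (the others up to 5.149) and Insig2 8.509 on array 18 (the others from 8.768). In cortex Con, Mvd read 7.8 on array 12 (the others from 7.906) and Fdps 10.43 on array 10 (the others from 10.76). In striatum Con, Hsd17b7 read 8.886 and Scap 6.991 on array 2 (the others up to 8.588 and from 7.321), and Dhcr7 7.406 on array 3 (the others up to 6.82). No member was called between KO and Con, so there was no such call for these values to decide. Leaving out any of the arrays named here made none.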

How the results depend on the processing

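No paired analysis was possible because no replicate number is shared between groups and no label ties arrays to mice. Of 250 member results (25 members, 10 contrasts), 226 kept their side of the threshold under all 8 alternatives (7 for the mean over regions) and without each of the 24 arrays, and 0 of the called differences reversed. Idi1 was not among the genes tested under the stricter filter. Members called between KO and Con stayed at 0 in each region under all of them, and over the regions together reached 1 (Msmo1) without cerebellum KO array 21. Called genes of all 11114 numbered 26 in the cerebellum (51 with the authors' values, 8 with arrays of that region alone), 61 in the cortex (27 with median scaling, 39 without a filter on dim probes, 220 with array weights), 60 in the striatum (26 with median scaling, 15 with that region alone) and 257 over the regions (96 with median scaling). Without single arrays the ranges were 19 to 30, 16 to 89, 30 to 95 and 180 to 295. Called members of cerebellum against striatum fell to 6 with median scaling, against 10, and of cortex against striatum to 1 with median scaling and 2 with the authors' values, against 4, and rose to 6 with array weights. Without single arrays the ranges were 7 to 13 (cerebellum against cortex), 7 to 10 and 1 to 4. The differences of KO effects had 1 called gene each. With cortex minus cerebellum this was 6 with the authors' values and 0 with median scaling, no filter or the compared regions alone (0 to 1 without single arrays). With striatum minus cerebellum it was 3 with the authors' values and 0 without background correction, with median scaling, no filter or the compared regions alone (0 to 9). With cortex minus striatum it was 0 without background correction, with median scaling, no filter, a stricter filter, array weights or the compared regions alone (0 to 2). The cause was not tested. Dim signal limits Idi1, Srebf1 and Tm7sf2 most.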
